A study of Mus musculus with 8 samples.

Results

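The 36 genes described here are the core machinery of the mammalian cell cycle and of DNA replication, taken by name from a list. All 36 were among the 19267 genes of the deposited liver table, and 28 of them reached a mean of at least 10 counts over the 8 libraries and were tested, as were 13145 genes in all. They were read in 4 roles. These were 6 regulators of G1 and of entry into S phase, 12 genes of replication licensing and the replication fork, 4 genes of deoxynucleotide supply and 14 genes of G2 and mitosis. Resting hepatocytes leave the cell cycle and re-enter it after tissue loss or injury, when cyclin D rises, E2F factors switch on the genes of S phase, and the genes of G2 and mitosis follow. The MCM helicase is loaded on origins by Cdc6 and Cdt1, is activated with Cdc45 and the GINS complex, and is followed by the sliding clamp PCNA. Cdkn1a (p21) is the inhibitor of cyclin-dependent kinases best known as a target of p53, and it can also rise in liver cells that do not divide.

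The libraries were made from total RNA of liver of male C57BL/6 mice aged 9 weeks. WT mice were labelled wild type and, per the methods of the study, carried Cre as well, while *Elf4-/-* mice had the genotype *Elf4*fl/fl-Villin-Cre. In the latter, the transcription factor gene *Elf4* is deleted by Cre under the villin promoter, which is active in intestinal epithelium, so the liver was not the tissue in which the gene was targeted. From 6 weeks of age they were pair-fed for 21 days on Lieber-DeCarli liquid food. The EtOH groups received alcohol at 5% (w/v), and in the Control groups maltose dextrin supplied the same calories. Each of the 4 groups, named by genotype and diet, had 2 libraries. The labels did not state that the libraries of a group came from separate animals, so p-values measure the spread between these libraries alone. The questions were whether the alcohol diet moved the cell cycle genes of the liver, whether the intestinal deletion did, and whether the diet change differed between genotypes.

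Library totals ran from 6171051 to 9157362 counts, and *Elf4* itself had 6 to 36 counts per library in liver with overlapping genotypes, which does not test a deletion in the intestine. The 7 hepatocyte markers summed to 30990 to 75250 CPM (counts scaled to a fixed library size) in every library, so the defining markers of the labelled tissue were present. Genes of the mitochondrial genome took 23.4% to 33.7% of the counts in WT-Control, 10.8% to 12.5% in WT-EtOH and 18.3% to 22.1% in the other groups. CPM below are relative to library totals scaled by TMM factors, which ran from 0.84 to 1.19. Scaled by totals alone, the median log2 change of all genes moved by 0.42 for diet in WT, by -0.23 for genotype under EtOH, by 0.23 for genotype under control diet, by -0.46 for the interaction and by 0.20 for diet averaged over genotypes. The corresponding shift for diet in *Elf4-/-* was -0.03.

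Promoters of the members are shown because many of these genes are known to be switched on together through short promoter words. RefSeq windows of GRCm38.p6, the assembly of mm10, reaching from 250 bases before to 50 bases after the start site, matched 28 of the 36 members and not *Ccnd1*, *Ccne2*, *Mcm4*, *Gins1*, *Gins2*, *Foxm1*, *Ccna2* and *Aurkb*. The words searched on both strands were TTCCCGC or TTGGCGC or TTCGCGC (E2F sites), TTTGAA (the cell cycle homology region, CHR) and CCAAT (the box bound by NF-Y). Matches can overlap: the reverse of TTGGCGC ends in the first letters of the CCAAT box, and in *Mcm6* a TTGGCGC shares letters with a reversed TTCGCGC. An E2F word was found in 11 of the 28 members (39.3%) and in 9.2% of the 27025 genes of the promoter table. By role it was in 6 of 9 replication genes (66.7%) and in 3 of 11 genes of G2 and mitosis (27.3%). The CHR word was in 8 of 11 genes of G2 and mitosis (72.7%), in 2 of 9 replication genes (22.2%) and in 20.2% of all genes. The CCAAT box was in 10 of 11 genes of G2 and mitosis (90.9%), in 7 of 9 replication genes (77.8%) and in 41.1% of all genes. A match is a description of the letters and does not show that a site is bound.

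The 250 bases before the start site are printed, from 5′ to 3′ on the strand of the gene, for the 5 members with a window that passed the test for diet averaged over genotypes (*Cdkn1a*, *Pcna*, *Rrm1*, *Top2a* and *Tk1*), and for *Mki67* and *Mcm6* as examples of a mitotic and a replication promoter. Capitals mark the E2F, CHR and CCAAT words. For *Cdkn1a*, which has 2 annotated starts, the downstream one is shown.
*Cdkn1a*, chr17:29093519-29093768, plus strand: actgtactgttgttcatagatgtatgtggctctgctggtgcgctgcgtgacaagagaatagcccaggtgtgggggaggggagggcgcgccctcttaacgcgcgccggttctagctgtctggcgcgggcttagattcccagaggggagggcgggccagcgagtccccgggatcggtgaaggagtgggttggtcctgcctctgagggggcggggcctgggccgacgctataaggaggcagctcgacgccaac
*Pcna*, chr2:132253181-132253430, minus strand: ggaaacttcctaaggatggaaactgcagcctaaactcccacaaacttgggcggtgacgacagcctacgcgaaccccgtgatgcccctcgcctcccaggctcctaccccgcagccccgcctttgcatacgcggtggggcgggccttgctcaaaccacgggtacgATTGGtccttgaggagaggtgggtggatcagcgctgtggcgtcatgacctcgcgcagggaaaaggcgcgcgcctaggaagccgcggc
*Rrm1*, chr7:102441445-102441694, plus strand: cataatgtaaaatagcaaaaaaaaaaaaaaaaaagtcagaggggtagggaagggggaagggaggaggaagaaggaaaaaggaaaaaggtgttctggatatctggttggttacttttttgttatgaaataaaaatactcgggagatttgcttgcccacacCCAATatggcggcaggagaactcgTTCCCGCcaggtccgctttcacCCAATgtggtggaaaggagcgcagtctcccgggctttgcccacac
*Top2a*, chr11:99024190-99024439, minus strand: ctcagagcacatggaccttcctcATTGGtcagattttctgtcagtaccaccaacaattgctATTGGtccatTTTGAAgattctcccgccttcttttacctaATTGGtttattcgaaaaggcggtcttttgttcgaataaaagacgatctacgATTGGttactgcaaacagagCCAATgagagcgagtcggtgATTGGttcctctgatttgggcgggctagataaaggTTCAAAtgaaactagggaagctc
*Tk1*, chr11:117826015-117826264, minus strand: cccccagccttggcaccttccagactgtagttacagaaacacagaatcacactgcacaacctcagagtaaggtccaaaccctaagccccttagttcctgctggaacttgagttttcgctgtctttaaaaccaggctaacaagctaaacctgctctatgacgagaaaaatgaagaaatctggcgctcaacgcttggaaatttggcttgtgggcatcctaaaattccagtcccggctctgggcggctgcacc
*Mki67*, chr7:135716380-135716629, minus strand: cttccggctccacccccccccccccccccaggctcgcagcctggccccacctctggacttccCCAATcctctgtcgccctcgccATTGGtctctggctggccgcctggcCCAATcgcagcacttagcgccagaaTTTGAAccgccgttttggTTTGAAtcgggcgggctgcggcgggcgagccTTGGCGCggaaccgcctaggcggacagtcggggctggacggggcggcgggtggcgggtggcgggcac
*Mcm6*, chr1:128359706-128359955, minus strand: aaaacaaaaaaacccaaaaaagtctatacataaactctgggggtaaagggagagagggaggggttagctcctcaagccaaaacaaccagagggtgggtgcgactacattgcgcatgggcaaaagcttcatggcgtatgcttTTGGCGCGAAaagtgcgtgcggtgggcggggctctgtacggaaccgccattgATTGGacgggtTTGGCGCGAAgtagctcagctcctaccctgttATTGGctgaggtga
Neither the *Cdkn1a* nor the *Tk1* window held any of the words. In the bases printed, *Pcna* held 1 CCAAT box, *Rrm1* held 1 E2F word and 2 CCAAT boxes, and *Top2a* held 2 CHR words and 6 CCAAT boxes.

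Mean levels of the 36 genes ran from 0.327 CPM (*Cdc6*) to 42.3 CPM (*Ccnd1*). Per length (mean CPM over the 8 libraries per kb of annotated exon), 4 members were above 5 CPM per kb. These were *Ccnd1* (8.99), which encodes cyclin D1, *Gins2* (7.83), *Pcna* (7.48) and *Tk1* (6.89), which encodes the salvage enzyme thymidine kinase. The next were *Mcm7* at 4.08 and *Ccne2*, cyclin E2, at 3.36 CPM per kb, and 15 of the 36 members were above 1 CPM per kb. *Mki67*, the gene of the proliferation antigen Ki-67, had 0.696 CPM per kb, *Cdk1*, the mitotic kinase, 0.692, and *Top2a*, the topoisomerase that untangles chromosomes, 0.318. Lowest of all was *Cdc6* at 0.0625 CPM per kb. The neighbours in this order were close: the 4 highest genes each spanned ranges between libraries that overlapped those of the next.

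The 8 members under the minimum were *Ccne1* (mean 9.88 counts), *E2f2* (8.5), *Cdc6* (2.5), *Foxm1* (9.38), *Ccnb1* (3.5), *Plk1* (9), *Aurkb* (5.38) and *Bub1* (4.5). Of these, *Ccne1* and *E2f2* belong to S entry, *Cdc6* to licensing, and the other 5 to G2 and mitosis. Summed over the 8 genes they had 30 to 85 counts per library, and the highest sum in CPM, 10.6, was in *Elf4-/-*-EtOH replicate 1 and the lowest, 4.9, in *Elf4-/-*-EtOH replicate 2. Over the 4 libraries of each diet, *Bub1*, a spindle checkpoint kinase, had 4 counts under control diet and 32 under EtOH, *Ccnb1*, cyclin B1, 6 and 22, and *E2f2* 47 and 21. They entered no test.

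With the alcohol diet, averaged over both genotypes, 7 of the 28 tested genes changed. *Cdkn1a*, *Pcna*, *Rrm1* and *Top2a* were higher and *Ccne2*, *Gins2* and *Tk1* were lower. Each change was called by edgeR's quasi-likelihood test at a Benjamini-Hochberg adjusted p under 0.05 over all 13145 genes. The 7 genes were 25% of those tested, against 29.5% of all genes called in this comparison, a share near that background. In bulk libraries, fewer cells of a type and less RNA per cell cannot be told apart. By direction, 14.3% of the members were called higher and 10.7% lower, against 15.1% and 14.4% of all genes. At an unadjusted p under 0.05 there were 12 members (42.9%, against 42% of all genes). The split of all calls, 1986 higher and 1889 lower, became 2936 and 1037 with scaling by library totals. With that scaling 8 members were higher (*Cdkn1a*, *Mcm3*, *Mcm6*, *Pcna*, *Rrm1*, *Tyms*, *Top2a* and *Mki67*) and 1 was lower (*Gins2*), which is 32.1% of the members against 30.2% of all genes. The median log2 change of the 28 genes was 0.53, with 21 above 0, against 0.01 for all genes tested, and with scaling by totals it was 0.71 with 21 above 0 again.

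**Figure D1:**
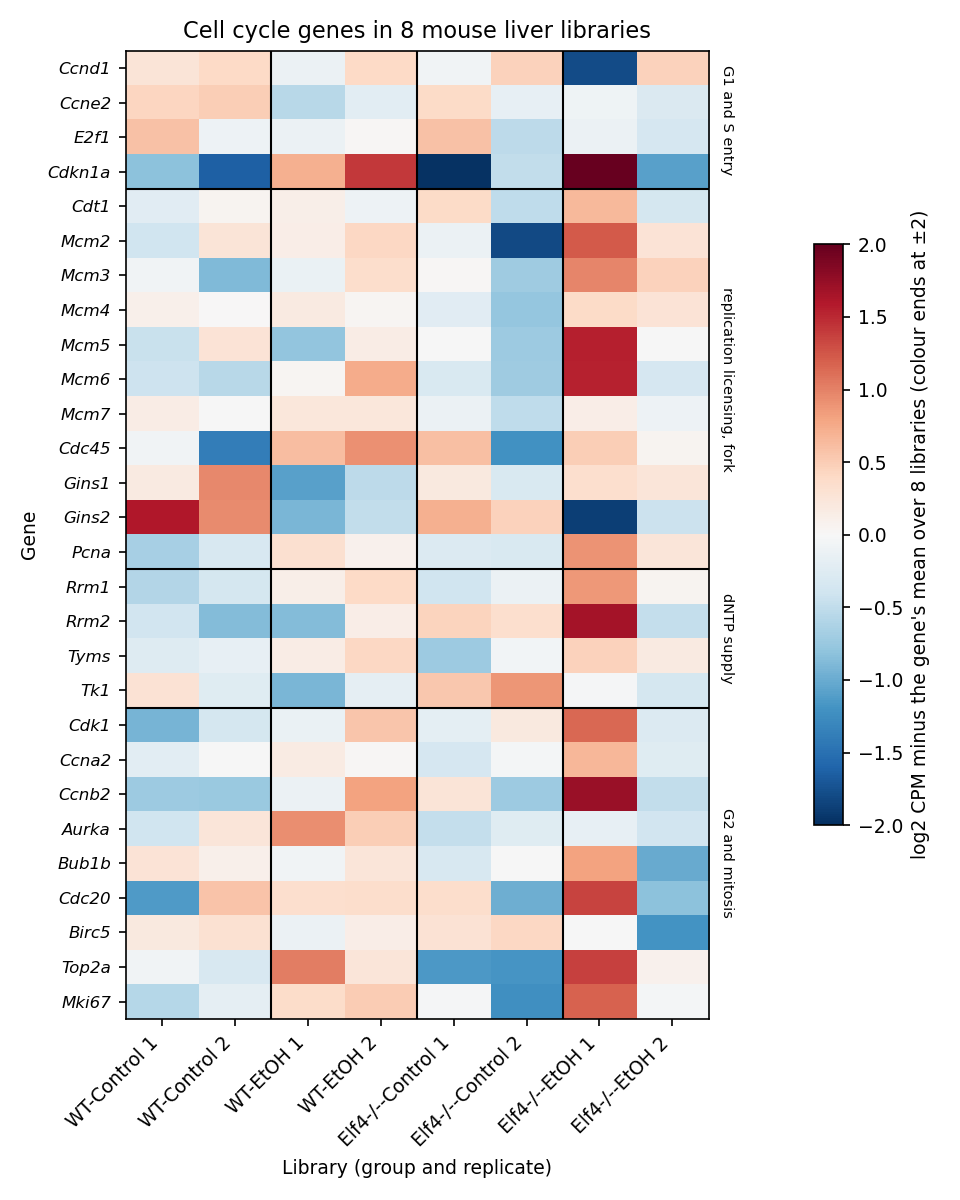
Centred log2 CPM (colour, the value minus the mean of the gene over the 8 libraries) of the 28 tested genes (rows, by role) in the 8 libraries (columns). *Elf4-/-*-EtOH replicate 1 is the column with most red, with a mean over the genes of 0.69, and *Elf4-/-*-EtOH replicate 2 stands at -0.21.

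Within WT, 2 of the 28 genes were called for diet, both lower (7.14%, against 22.8% of all genes called and 11.2% called lower). They were *Gins1* and *Gins2*, subunits of the GINS complex that holds the helicase together. None was called higher, against 11.6% of all genes, while 4 members (14.3%, against 37.4% of all genes) were under an unadjusted p of 0.05 and DESeq2 called the same 2. The median log2 change was 0.36 with 19 of 28 above 0, and became 0.78 with 24 above 0 with scaling by totals, when all calls split into 3374 higher and 613 lower in place of 1526 and 1471. With that scaling *Pcna* and *Rrm1* were called higher and *Gins2* alone was called lower (10.7%, against 30.3% of all genes). Expression did not overlap between the diets, upward, in 13 of the 28 genes (46.4%, against 34.1% of all genes) and, downward, in 4 (14.3%, against 33.3%).

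Within *Elf4-/-*, edgeR called none of the 28 genes for diet, against 3.28% of all genes. At an unadjusted p under 0.05 there were 10 members (35.7%, against 21.9% of all genes), 8 higher (28.6%, against 11.3%) and 2 lower (7.14%, against 10.6%). DESeq2 called 2 (7.14%), *Top2a* higher and *Gins2* lower, and it also called more of all genes than edgeR did, as given in the last section. The median log2 change was 0.60 with 22 of 28 above 0, and 0.54 with 22 above 0 with scaling by totals. The diets did not overlap upward in 10 genes (35.7%, against 26.4% of all genes) and downward in 3 (10.7%, against 26.6%). The averaged comparison is built from the same 8 libraries as the comparisons within each genotype.

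**Figure D2:**
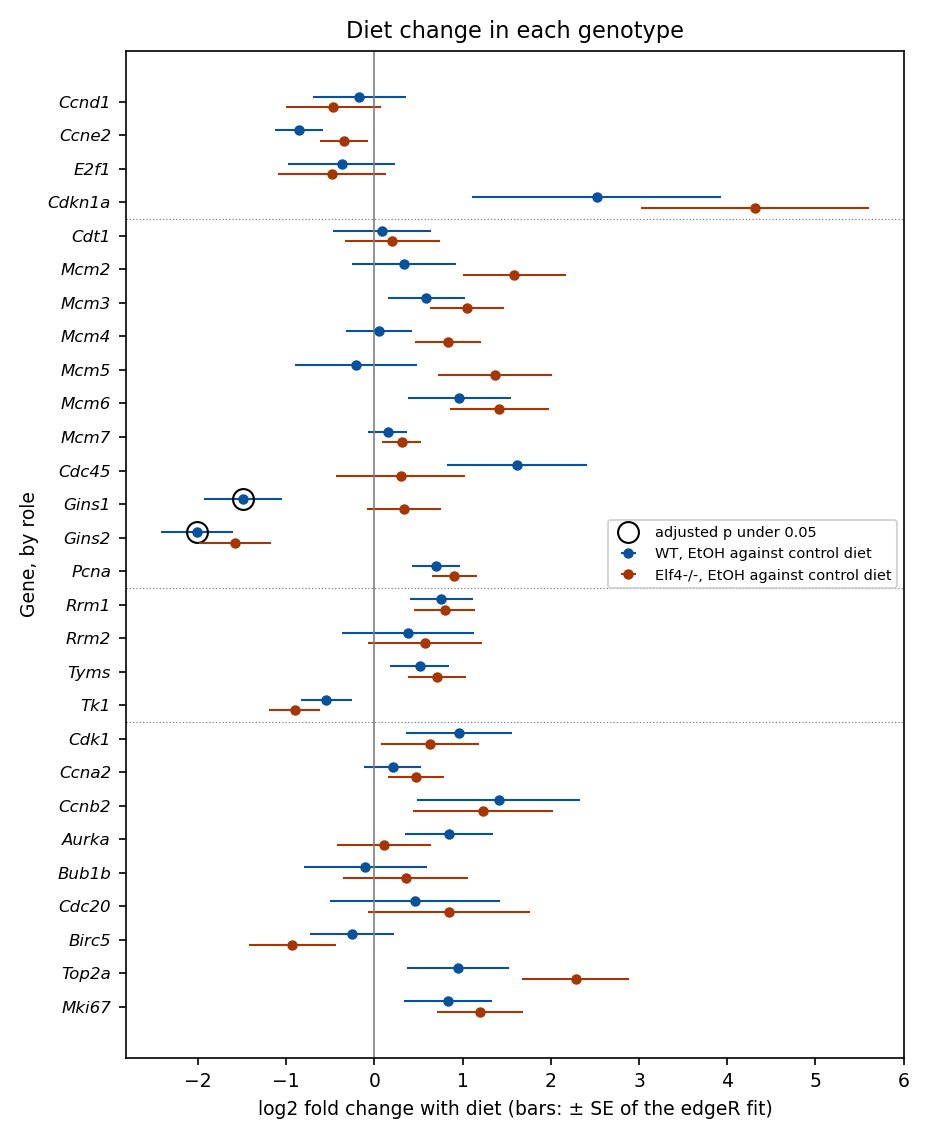
Log2 fold change with the alcohol diet (x axis, bars ± SE of the edgeR fit) for the 28 tested genes (y axis, by role) in WT and in *Elf4-/-*. *Gins1* and *Gins2* in WT are ringed as called, *Cdkn1a* has the largest rise in both genotypes (2.52 and 4.32) with the widest bars, and *Gins1* is the gene whose points lie farthest apart on opposite sides of 0.

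Among the regulators of G1 and S entry, 4 of 6 were tested, 1 rose (*Cdkn1a*, 25%) and 1 fell (*Ccne2*, 25%) with diet averaged over genotypes, against 15.1% and 14.4% of all genes. *Cdkn1a* stood at 1.49 and 0.733 CPM for WT-Control, 4.83 and 7.98 for WT-EtOH, 0.513 and 1.93 for *Elf4-/-*-Control, and 45.2 and 1.19 for *Elf4-/-*-EtOH. In WT the diets did not overlap, while in *Elf4-/-* 1 library was high and the other was within the control range, with 283 counts against 9 in the other library of the group. Averaged over genotypes the log2 change was 3.42 ± 0.95 (SE, 10.7-fold, adjusted p = 0.0238, edgeR). The value fell to 1.28 without *Elf4-/-*-EtOH replicate 1, and the call was lost without that library or without any 1 of WT-Control replicates 1 and 2, WT-EtOH replicate 2 and *Elf4-/-*-Control replicates 1 and 2. Within WT it was 2.52 ± 1.41 (adjusted p = 0.223) and within *Elf4-/-* 4.32 ± 1.29 (adjusted p = 0.0926).

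*Ccne2*, whose product drives entry into S phase with Cdk2, stood at 15.3 and 16.1 CPM for WT-Control, 7.63 and 9.73 for WT-EtOH, 15 and 10.1 for *Elf4-/-*-Control, and 10.7 and 9.27 for *Elf4-/-*-EtOH. Both WT-EtOH libraries were below both WT-Control libraries, and the *Elf4-/-* groups overlapped. Its log2 change was -0.60 ± 0.19 (adjusted p = 0.0436), and 10 of 14 alternatives, among them DESeq2 and the omission of 6 single libraries (both WT-Control, both WT-EtOH, *Elf4-/-*-Control replicate 1 and *Elf4-/-*-EtOH replicate 2), ended the call. The fall in WT was 0.85 on the log2 scale, with an SE of 0.28 (adjusted p = 0.0502). *Ints8* shares 609 exon bases with *Ccne2* on the opposite strand (17.4% of its exon length), and its log2 change was -0.44 ± 0.16 (adjusted p = 0.069).

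*Ccnd1* stood at 46.5 and 50.9 CPM for WT-Control, 35.6 and 51 for WT-EtOH, 36.7 and 53.3 for *Elf4-/-*-Control, and 11 and 53.6 for *Elf4-/-*-EtOH. Only *Elf4-/-*-EtOH replicate 1 stood outside the range of the others, and there it was low. The log2 change with diet was -0.32 ± 0.38 (adjusted p = 0.557) on average and did not pass in either genotype. *E2f1*, the leading activator of S phase genes, stayed between 0.893 and 2.26 CPM in all libraries, with a log2 change of -0.42 ± 0.43 (adjusted p = 0.489).

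Of the replication genes, 11 of 12 were tested. With diet averaged over genotypes 1 rose (*Pcna*, 9.09%, against 15.1% of all genes) and 1 fell (*Gins2*, 9.09%, against 14.4%), 9 of the 11 changes were above 0, and their median log2 change was 0.58. *Pcna* stood at 10.7 and 13.6 CPM for WT-Control, 21.4 and 18 for WT-EtOH, 14 and 13.7 for *Elf4-/-*-Control, and 32 and 20.3 for *Elf4-/-*-EtOH. All 4 libraries of the alcohol diet were above all 4 of the control diet, as for 4 members upward (14.3%) and 14.5% of all genes. The log2 change was 0.80 ± 0.19 (1.74-fold, adjusted p = 0.0115), and it kept its call in all 14 alternatives. It was 0.70 ± 0.27 in WT (adjusted p = 0.0871) and 0.91 ± 0.26 in *Elf4-/-* (adjusted p = 0.0841).

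The MCM helicase genes *Mcm2* to *Mcm7* had log2 changes from 0.23 (*Mcm7*) to 1.19 (*Mcm6*) with diet averaged over genotypes, all above 0, and none passed. *Mcm6* stood at 4.3 and 3.85 CPM for WT-Control, 5.98 and 9.83 for WT-EtOH, 4.61 and 3.42 for *Elf4-/-*-Control, and 17.4 and 4.5 for *Elf4-/-*-EtOH. The WT diets did not overlap and the *Elf4-/-* diets did, with replicate 2 of *Elf4-/-*-EtOH at the control level. Its log2 change was 1.19 ± 0.40 (adjusted p = 0.0509), just above the threshold. *Mcm2* was at 0.96 ± 0.41 (adjusted p = 0.106) and *Mcm3* at 0.82 ± 0.30 (adjusted p = 0.0661), and *Cdt1*, the loading factor, at 0.14 ± 0.39 (adjusted p = 0.804). *Cdc45*, the helicase activator, ranged from 0.366 to 2.87 CPM and had the largest difference between genotypes downward in the interaction (-1.31 ± 1.08, adjusted p = 0.726).

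*Gins2* stood at 76.4 and 48.4 CPM for WT-Control, 13.1 and 17.7 for WT-EtOH, 41.2 and 34.7 for *Elf4-/-*-Control, and 6.55 and 18.5 for *Elf4-/-*-EtOH. All libraries of the alcohol diet were below all of the control diet, as for 2 members downward (7.14%, against 14.3% of all genes). The log2 change was -1.80 ± 0.29 on average (adjusted p = 0.00224), the deepest fall of the 28 genes in the averaged diet comparison and in each genotype, and it passed in all 14 alternatives. In WT it was -2.01 ± 0.41 (adjusted p = 0.00911), and this call was lost without WT-Control replicate 1 or without either WT-EtOH library. In *Elf4-/-* it was -1.58 ± 0.41 (adjusted p = 0.0659).

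*Gins2* (ENSMUSG00000031821, chromosome 8, 120578633 to 120589304 on the minus strand of GRCm38) shares 2758 exon bases, 67.3% of its exon length, with *Gse1* on the opposite strand. Whether counting used strand is not given in the sources used here. Unless both the libraries and the counting kept strand, reads of the shared bases cannot be told apart. *Gse1* stood at 428 and 335 counts for WT-Control, 107 and 204 for WT-EtOH, 541 and 285 for *Elf4-/-*-Control, and 48 and 186 for *Elf4-/-*-EtOH. The corresponding counts of *Gins2* were 409 and 264, 103 and 173, 402 and 233, and 41 and 140. The log2 change of *Gse1* with diet was -1.81 ± 0.31 (adjusted p = 0.003), nearly that of *Gins2*. *Ccnd1* shares 1100 exon bases (23.4%) with *LTO1* on the opposite strand, and their counts moved together as well, at 69 and 102 in *Elf4-/-*-EtOH replicate 1 and at 405 and 457 in replicate 2. In all, 10 of the 36 members shared exon bases with a gene on the opposite strand, and the part of this sharing in their changes was not tested. *Pcna*, *Tyms*, *Ccnb1* and *Ccnb2* have annotated processed pseudogenes that carry their names, with which reads could have been split. Pseudogenes under other names were not searched for in any member.

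**Figure D3:**
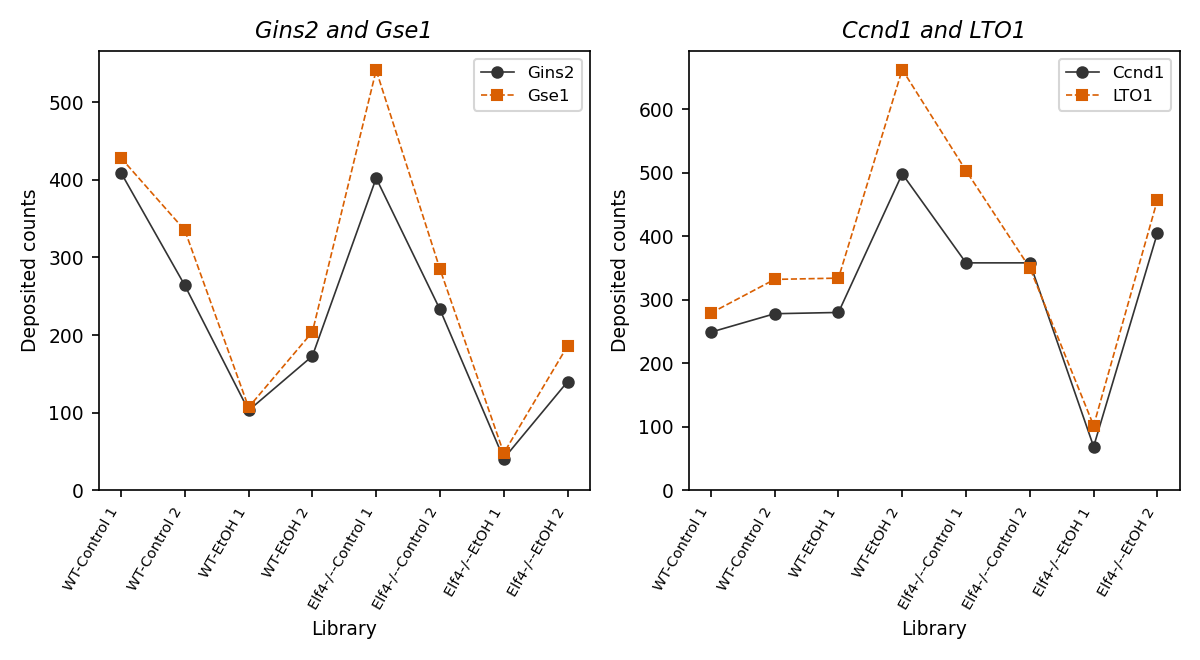
Deposited counts (y axis) in the 8 libraries (x axis) of *Gins2* and *Gse1* (left) and of *Ccnd1* and *LTO1* (right), pairs that share exon bases on opposite strands. In most libraries the lines follow each other, and both members of each pair are lowest in *Elf4-/-*-EtOH replicate 1.

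*Gins1*, which shares no exon bases with another gene, was called for diet in WT. It stood at 4.67 and 8.25 CPM for WT-Control, 1.78 and 2.76 for WT-EtOH, 4.72 and 3.27 for *Elf4-/-*-Control, and 5.27 and 4.9 for *Elf4-/-*-EtOH. The alcohol diet libraries were below the control libraries in WT and above them in *Elf4-/-*. How many of all genes did so was not counted, so this is not read as particular to *Gins1*. The log2 change in WT was -1.49 ± 0.44 (2.81-fold lower, adjusted p = 0.0371) and in *Elf4-/-* 0.33 ± 0.42 (adjusted p = 0.687). The difference between them was 1.82 ± 0.61 and did not pass after adjustment (unadjusted p = 0.0135, adjusted p = 0.355). The call in WT was also lost without WT-Control replicate 2, without either WT-EtOH library, without either *Elf4-/-*-Control library, with scaling by library totals and with the replicate block. *Gins1* had 14 to 46 counts per library.

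All 4 genes of deoxynucleotide supply were tested, and with diet averaged over genotypes 1 rose (*Rrm1*, 25%, against 15.1% of all genes) and 1 fell (*Tk1*, 25%, against 14.4%). *Rrm1*, the large subunit of ribonucleotide reductase, stood at 4.67 and 5.5 CPM for WT-Control, 7.75 and 9.42 for WT-EtOH, 5.33 and 6.55 for *Elf4-/-*-Control, and 13.3 and 7.42 for *Elf4-/-*-EtOH. Every library of the alcohol diet was above every library of the control diet. The log2 change was 0.78 ± 0.25 (1.71-fold, adjusted p = 0.0412), and the call was lost in DESeq2, with the replicate block and without any 1 library other than *Elf4-/-*-EtOH replicate 2. *Rrm2*, the small subunit, stood at 2.43 and 1.65 CPM for WT-Control, 1.65 and 3.58 for WT-EtOH, 4.51 and 4.17 for *Elf4-/-*-Control, and 10.9 and 2.25 for *Elf4-/-*-EtOH, with diets that overlapped in both genotypes. Its log2 change was 0.48 ± 0.49 (adjusted p = 0.497) and turned to -0.28 without *Elf4-/-*-EtOH replicate 1.

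*Tk1* stood at 40.9 and 28.2 CPM for WT-Control, 17.7 and 29.6 for WT-EtOH, 48.6 and 62.4 for *Elf4-/-*-Control, and 33.1 and 26.2 for *Elf4-/-*-EtOH. The diets overlapped in WT and did not in *Elf4-/-*, where control libraries were highest of all. The log2 change was -0.72 ± 0.20 (1.65-fold lower, adjusted p = 0.0252), and the call was lost with scaling by library totals and without WT-Control replicate 1, WT-EtOH replicate 1 or *Elf4-/-*-Control replicate 2. *Tyms*, thymidylate synthase of the de novo route to the same nucleotide, had 4 to 6.55 CPM under control diet and 7.5 to 9.43 under EtOH, with a log2 change of 0.61 ± 0.24 (adjusted p = 0.0767).

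Of the genes of G2 and mitosis, 9 of 14 were tested, and with diet averaged over genotypes 1 rose (*Top2a*, 11.1%, against 15.1% of all genes), none fell (14.4% of all genes did) and 8 of the 9 changes were above 0, with a median of 0.65 on the log2 scale. *Top2a* stood at 2.24 and 1.83 CPM for WT-Control, 5.09 and 2.87 for WT-EtOH, 0.923 and 0.893 for *Elf4-/-*-Control, and 6.55 and 2.52 for *Elf4-/-*-EtOH. The diets did not overlap, with 6 to 12 counts per library under control diet and 19 to 41 under EtOH. The log2 change was 1.62 ± 0.42 (3.06-fold, adjusted p = 0.0183), and the call was lost without WT-Control replicate 2, WT-EtOH replicate 1, either *Elf4-/-*-Control library or *Elf4-/-*-EtOH replicate 1.

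*Mki67* stood at 4.11 and 5.5 CPM for WT-Control, 8.14 and 9.01 for WT-EtOH, 6.15 and 2.53 for *Elf4-/-*-Control, and 14.5 and 6.09 for *Elf4-/-*-EtOH. The WT diets did not overlap, and the *Elf4-/-* diets overlapped by a narrow margin. Its log2 change was 1.02 ± 0.35 (2.02-fold, adjusted p = 0.053), and it passed in DESeq2. *Aurka*, a spindle kinase, stood at 1.31 and 2.2 CPM for WT-Control, 3.69 and 2.66 for WT-EtOH, 1.23 and 1.49 for *Elf4-/-*-Control, and 1.6 and 1.32 for *Elf4-/-*-EtOH, so the diets were apart in WT alone. Its log2 change was 0.84 ± 0.50 in WT (adjusted p = 0.248) and 0.11 ± 0.53 in *Elf4-/-* (adjusted p = 0.925). *Birc5* (survivin) was the 1 tested gene of this role with a change below 0, at -0.59 ± 0.34 (adjusted p = 0.217).

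**Figure D4:**
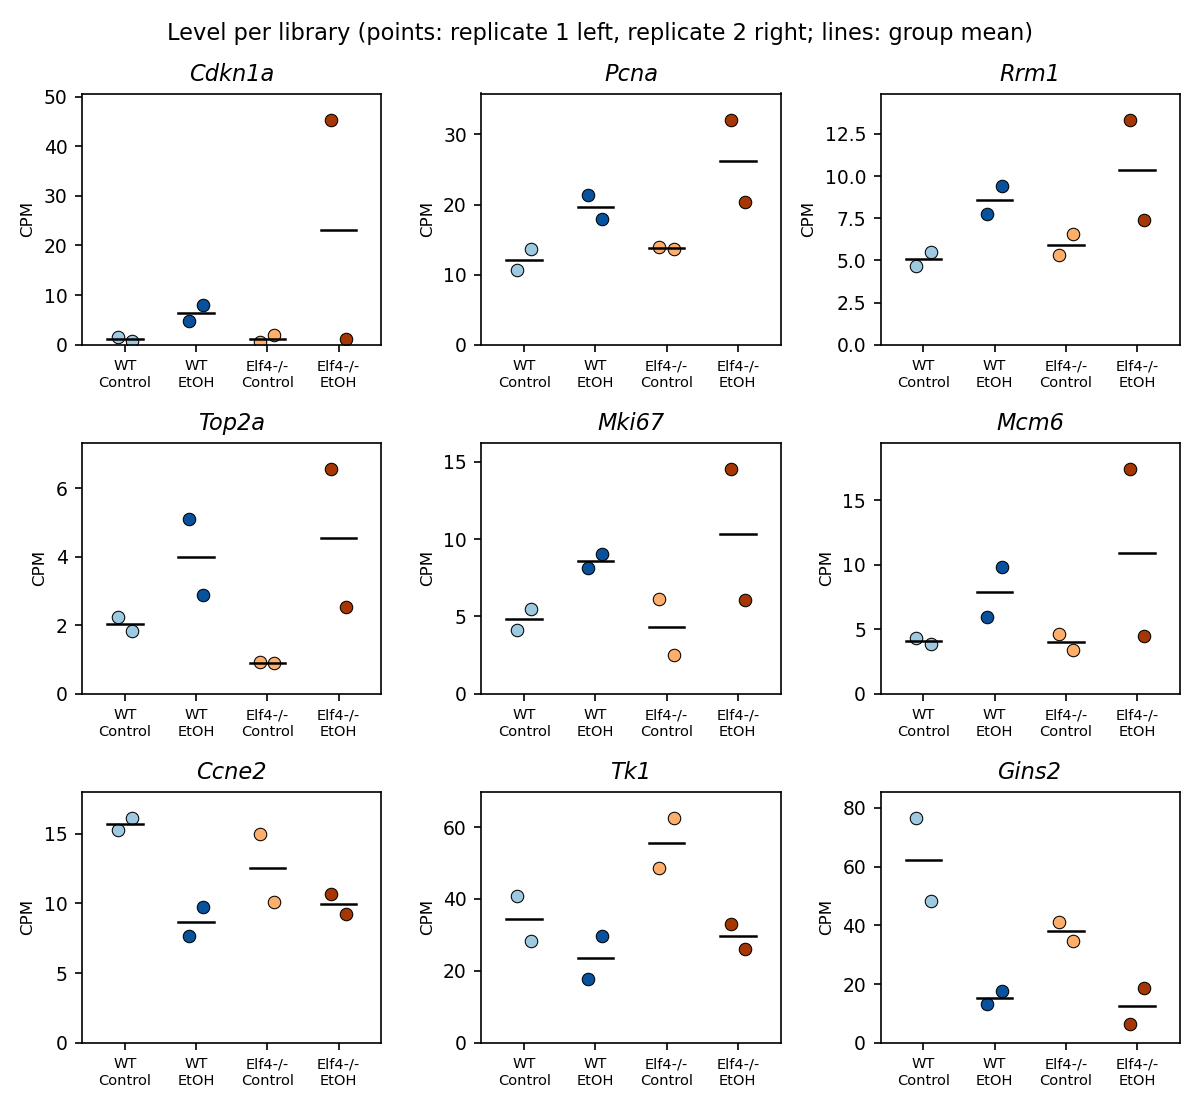
CPM (y axis, from 0) of 9 genes in the 4 groups (x axis), with 1 point per library and a line at the group mean. *Pcna*, *Rrm1* and *Top2a* are higher and *Gins2* lower in all 4 libraries of the alcohol diet, and the *Cdkn1a* mean of *Elf4-/-*-EtOH rests on 1 library at 45.2 CPM beside 1 at 1.19 CPM.

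For the 28 genes, the libraries of *Elf4-/-*-EtOH differed from each other more than those of any other group. In replicate 1, 26 of the 28 genes were higher than in replicate 2, the exceptions being *Ccnd1* and *Gins2*. The median difference in log2 CPM, replicate 1 minus replicate 2, was 0.86 for the 28 genes and -0.01 for 10064 genes of the same range of counts. TMM scaling holds the latter near 0, so it does not measure how far those genes differed. Without sign, the medians were 0.98 for the 28 genes and 0.38 for the 10064 genes, which had 0.36 in WT-Control. In the other groups the median for the 28 genes was -0.09 (WT-Control), -0.28 (WT-EtOH) and 0.32 (*Elf4-/-*-Control). A score, the mean of centred log2 CPM over the 28 genes, was 0.69 and -0.21 in *Elf4-/-*-EtOH and -0.02 and 0.27 in WT-EtOH. Under control diet it was -0.15 and -0.13 for WT and -0.07 and -0.38 for *Elf4-/-*. For the 9 genes of G2 and mitosis it was 0.90 in *Elf4-/-*-EtOH replicate 1 and -0.49 in replicate 2, and 0.26 and 0.37 in WT-EtOH. On both scores replicate 1 was above every other library. Replicate 2 was within the range of the control diet libraries on the score of 28 genes and below all 4 of them on that of G2 and mitosis.

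**Figure D5:**
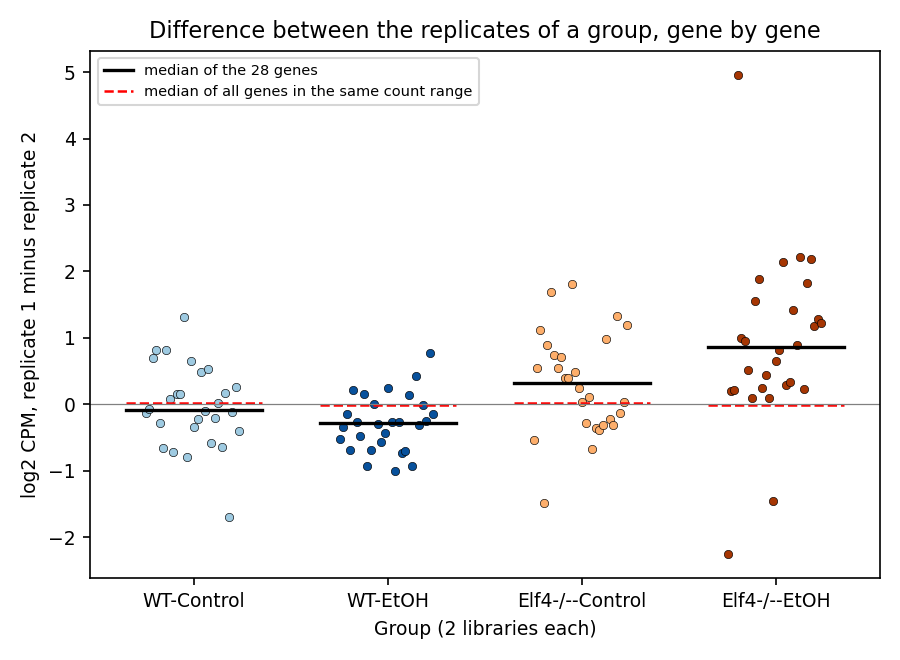
Difference in log2 CPM between replicate 1 and replicate 2 (y axis) of each group (x axis), with 1 point per tested gene, the median of the 28 genes (black) and the median of all genes of the same range of counts (red, dashed). In *Elf4-/-*-EtOH 26 of 28 points lie above 0 with a median of 0.86, and the highest point, at 4.96, is *Cdkn1a*.

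Calls among the members changed with the libraries of every group. Without *Elf4-/-*-EtOH replicate 1, diet averaged over genotypes called 4 genes (14.3%, against 27.5% of all genes in that fit), *Pcna* higher and *Ccne2*, *Gins2* and *Tk1* lower. Without *Elf4-/-*-EtOH replicate 2 it called 13 (46.4%, against 34.8%), with *Mcm2*, *Mcm3*, *Mcm6*, *Cdk1*, *Ccnb2* and *Mki67* among the 10 that were higher. For diet in *Elf4-/-* there were 0 calls without replicate 1 (1.61% of all genes) and 7 without replicate 2 (25%, against 12.8% of all genes), *Cdkn1a*, *Mcm6*, *Pcna*, *Top2a* and *Mki67* higher and *Ccnd1* and *Gins2* lower. For diet in WT, 5 genes (17.9%) were called without replicate 1 and the same 5 without replicate 2 (30% and 30.1% of all genes), *Cdkn1a* and *Pcna* higher and *Ccne2*, *Gins1* and *Gins2* lower. Among the other groups, the averaged comparison called 3 genes (10.7%) without WT-Control replicate 1, WT-Control replicate 2, WT-EtOH replicate 1 or *Elf4-/-*-Control replicate 2 (16.8% to 24.7% of all genes). It called 4 (14.3%, against 16.2%) without WT-EtOH replicate 2 and 5 (17.9%, against 18.9%) without *Elf4-/-*-Control replicate 1. For diet in WT, 0 genes were called by edgeR without WT-EtOH replicate 1 or without WT-EtOH replicate 2 (7.43% and 4.74% of all genes), and 1 (3.57%) without any 1 of the control diet libraries (11.5% to 17.2% of all genes). The single library left in a group is then assumed to vary like the other groups.

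Between genotypes, no cell cycle gene was called under either diet. Under EtOH edgeR called 0 of 28 (0.145% of all genes called), 2 were under an unadjusted p of 0.05 (7.14%, against 10.7% of all genes), *Gins1* higher and *Aurka* lower, and DESeq2 called 0. The largest rise was *Cdkn1a* at 1.83 ± 1.05 (adjusted p = 0.588), which turned to -2.42 without *Elf4-/-*-EtOH replicate 1 and was 2.79 without replicate 2. The largest fall was *Aurka* at -1.11 ± 0.50 (adjusted p = 0.469). For *Mki67* the difference was 0.25 ± 0.47 (adjusted p = 0.893) and for *Pcna* 0.41 ± 0.25 (adjusted p = 0.623). Of the 28 differences 21 were above 0 with TMM factors and 15 with library totals, with medians of 0.25 and 0.01.

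Under control diet edgeR called 0 of 28 (0.0152% of all genes called), 1 (*Tk1*, higher) was under an unadjusted p of 0.05 (3.57%, against 7.36% of all genes), and DESeq2 called 0. The largest rise was *Rrm2* at 1.09 ± 0.73 (adjusted p = 0.813) and the largest fall *Top2a* at -1.15 ± 0.66 (adjusted p = 0.773). Here 11 of 28 differences were above 0 with TMM factors and 18 with library totals, so the direction of the list turned with the scaling (median -0.10 and 0.15). *Mcm4*, a helicase subunit, did not overlap between genotypes under either diet and lay lower in *Elf4-/-* under control diet and higher under EtOH, with an interaction of 0.78 ± 0.53 (adjusted p = 0.661). The share of all genes with such a pattern was not counted.

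The interaction, the diet change in *Elf4-/-* minus that in WT, was called by edgeR for 0 of the 28 genes and for 0% of all genes. The count at an unadjusted p under 0.05 was 1 (*Gins1*, 3.57%, against 10.3% of all genes), and DESeq2 called 0. With TMM factors 20 of 28 interactions were above 0 (median 0.24), and with library totals 7 were (median -0.23), so this direction also turned. With SEs from 0.31 (*Mcm7*) to 2.07 (*Cdkn1a*) on the log2 scale, a difference between genotypes in the size of the diet change was not detected for these genes by either tool.

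Of 88 further cell cycle genes in 3 lists, 69 were tested, and with diet averaged over genotypes 9 rose and 7 fell (23.2%, against 29.5% of all genes, and a median log2 change of 0.19, with 40 of 69 above 0). In the list of other G1 and S entry genes 5 of 21 rose (23.8%, against 15.1% of all genes) and 4 fell (19%, against 14.4%), with a median log2 change of -0.10. *E2f8*, a repressor of the E2F family that is itself induced in S phase, stood at 12.1 and 12.6 CPM for WT-Control, 25.2 and 30.5 for WT-EtOH, 5.95 and 5.06 for *Elf4-/-*-Control, and 17.4 and 20.3 for *Elf4-/-*-EtOH. It was higher under EtOH in every library of each genotype and was called in both, at 1.17 ± 0.22 in WT (adjusted p = 0.00733) and 1.77 ± 0.23 in *Elf4-/-* (adjusted p = 0.0107). *Myc* (2.97 ± 0.44, adjusted p = 0.00314) and *Ccnd2*, cyclin D2 (2.54 ± 0.60, adjusted p = 0.0166), were called in WT. *Cdkn1c*, the p57 inhibitor, was called in *Elf4-/-* at 2.73 ± 0.57 (adjusted p = 0.0381), and *Cdk4* was lower in WT at -0.99 ± 0.23 (adjusted p = 0.0158).

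In the list of other replication genes the median log2 change with diet averaged over genotypes was 0.11. Of 32 tested, 3 rose (9.38%, against 15.1% of all genes) and 2 fell (6.25%, against 14.4%). The largest of these were *Uhrf1*, which recruits the maintenance DNA methyltransferase, at 1.59 ± 0.50 (adjusted p = 0.0387), and *Mcm10* at -1.43 ± 0.32 (adjusted p = 0.00908). In the list of other G2 and mitosis genes the median was 0.36. Of 16 tested, 1 rose (6.25%, against 15.1% of all genes) and 1 fell (6.25%, against 14.4%). They were *Stmn1*, which destabilises microtubules, at 1.38 ± 0.24 (adjusted p = 0.00311), and *Ccnf*, cyclin F, at -1.24 ± 0.19 (adjusted p = 0.00202). Genotype and interaction gave no call in the 3 lists with edgeR.

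Of 18 p53 target genes 15 were tested. *Fas* rose in WT (0.88 ± 0.23, adjusted p = 0.0233), *Fas* (0.86 ± 0.16, adjusted p = 0.00489) and *Perp* (0.47 ± 0.13, adjusted p = 0.0213) rose with diet averaged over genotypes, and none fell. These were 6.67% of the list against 11.6% of all genes called higher in WT, and 13.3% against 15.1% for the average. The median log2 change of the list was -0.03 in WT and -0.01 for the average, with 6 and 7 of 15 above 0. Without *Cdkn1a*, which is a member, this list summed to 748.9 CPM in *Elf4-/-*-EtOH replicate 1, 426.3 in replicate 2 and 413.9 to 458 in the other libraries. *Trp53inp1*, 1 gene of this list, had 261 CPM in *Elf4-/-*-EtOH replicate 1 and 32.6 to 58.2 in the others. In replicates 1 and 2 of that group *Perp* had 92.3 and 109 CPM and *Fas* 23.6 and 20, so the higher sum was not shared by every gene of the list.

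Markers of other liver cells moved with the diet too, and within a genotype most of the calls were in WT. All 8 Kupffer cell and macrophage markers were called higher with diet in WT (100%, against 11.6% of all genes). Their summed level in WT was 198.1 to 260.7 CPM under control diet and 627.8 to 700.3 under EtOH. In *Elf4-/-* it was 185.9 to 192 CPM without alcohol and 253 to 264.9 with it. All 6 endothelial markers were called higher in WT (summed CPM 46.18 to 83.72 for WT-Control, 232 to 280.6 for WT-EtOH, 123.5 to 124 for *Elf4-/-*-Control, 123.6 to 191.7 for *Elf4-/-*-EtOH). Of 6 stellate cell markers 3 (50%) were called higher in WT (26.02 to 67.65, 227.2 to 297, 77.25 to 110.7 and 181.1 to 308.7 CPM in the same order). Of 7 hepatocyte markers 2 were called lower in WT (28.6%, against 11.2% of all genes). For diet in *Elf4-/-*, 1 of the 8 Kupffer cell markers was called higher (12.5%, against 1.94% of all genes). No endothelial, stellate or hepatocyte marker was called there, where 3.28% of all genes were called. All 6 stellate cell markers were above 0, with a median log2 change of 1.37 (1.38 in WT). Of the endothelial markers 5 of 6 were above 0, with a median of 0.60 (2.40 in WT). Of the hepatocyte markers 3 of 7 were, with a median of -0.16 (-1.24 in WT). Under EtOH, 2 of the 8 Kupffer cell markers were called lower in *Elf4-/-* than in WT (25%, against 0.0228% of all genes). None of these markers was at 0 in any group. Their part in the changes of the cell cycle genes was not tested.

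T and NK cell markers were too low to test (0.2977 to 12.28 CPM summed), with *Cd3e* at 0 in both *Elf4-/-*-Control libraries, and B cell markers (2 of 5 tested) gave no call at 4.474 to 15.05 CPM. With diet averaged over genotypes, 1 of 3 tested neutrophil and monocyte markers was called higher (33.3%, against 15.1% of all genes). Their summed level was 6.549 to 12.33 CPM under control diet and 8.875 to 23.17 under EtOH. Of the bile duct markers 1 of 3 (33.3%) and of the erythroid markers 1 of 4 (25%) were called lower, against 14.4% of all genes. With so few markers these shares cannot be told from those of all genes. Of 11 tested clock genes 1 was called higher (9.09%, against 15.1% of all genes) and 6 lower (54.5%, against 14.4%). The 12 measured clock genes summed to 1358 to 1682 CPM under control diet and to 507.2 to 811.4 under EtOH. Several cell cycle genes are known to follow the clock in liver, and the part of this in the results was not tested.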

How the data were processed

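Liver RNA of mice in 8 libraries, 2 per group, was analysed. Per the methods of the study and the submitters' processing notes, reads were aligned to mm10 with HISAT2, sorted with SAMtools and counted per gene with HTSeq, and the authors used DESeq2. Tool versions, the annotation and the strand setting are not given in the sources used here. The authors deposited raw counts per gene, and no per-sample column was left out (0).

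All 8 libraries entered 1 model of 4 groups in edgeR 4.0.16 (R 4.3.3, limma 3.58.1). Of 19267 genes, the 13145 that averaged 10 counts or more were kept, which hold 99.6% or more of the reads per library, with TMM factors and the quasi-likelihood test, and Benjamini-Hochberg adjusted p under 0.05 was called. SE was the log2 fold change divided by the square root of F. The common biological coefficient of variation was 22.4%. Log2 CPM used a prior count of 2. Totals of 6171051 to 9157362 counts limit precision most for members with few counts.

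The members and lists were chosen with earlier results of these data known. Genes were named if past the threshold in any of 6 contrasts, if they had the largest rise or fall in one, or if they were *Mki67*, *Pcna*, *Ccnd1* or *Cdkn1a*, and other members serve as examples chosen after their values were seen. Promoter windows came from RefSeq, and gene positions and exon lengths from GENCODE M21 on GRCm38. Alternatives were DESeq2 1.42.0, other scalings, other filters, the replicate block, the 4 libraries compared alone and leaving out each library. The authors' comparisons were not used.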

Additional observations from a re-analysis of the deposited data

How the results depend on the processing

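Low counts and groups of 2 libraries limit these results. Leaving out 1 library at a time, the members called for diet ranged from 0 to 5 in WT, from 0 to 7 in *Elf4-/-* and from 3 to 13 averaged over genotypes, and for genotype under EtOH from 0 to 2. For diet in *Elf4-/-*, DESeq2 called 2 and no filter called 1. Averaged over genotypes DESeq2 called 7 as edgeR did, with *Mcm6* and *Mki67* in place of *Rrm1* and *Ccne2*. For diet in WT, the 4 libraries compared alone called 4. The differences between replicates 1 and 2 correlated weakly between groups (-0.118 to 0.0736). This gave no sign that replicate numbers pair the samples, but it cannot exclude a pairing. With the replicate block 1 member was called for diet in WT and 5 averaged over genotypes. In this paragraph the share of all genes called in the same fit is not set beside these counts. They show how the calls varied, and not whether members changed more often than other genes. Scaling by library totals turned *Ccnd1* for diet in WT to 0.26.

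Leaving out 1 library turned the sign of other uncalled log2 changes, the cause of which was not tested. *Ccnd1* ranged from -0.46 to 0.065 for diet in WT, from -2.04 to 0.26 in *Elf4-/-* and from -1.11 to 0.045 averaged. *Rrm2* ranged from -0.31 to 0.81, from -0.94 to 1.30 and from -0.28 to 0.84 in the same order. For diet in *Elf4-/-*, *Aurka* ranged from -0.032 to 0.24 and *Cdc45* from -0.36 to 1.93, and the interaction of *Cdc45* from -2.47 to 0.32. For genotype under EtOH, *Cdkn1a* ranged from -2.42 to 2.79 and *Mki67* from -0.49 to 0.75. Over all genes, DESeq2 called 452 higher and 359 lower for diet in *Elf4-/-* (255 and 176 with edgeR), 147 and 33 for genotype under EtOH (16 and 3), 46 and 31 under control diet (1 and 1) and 83 and 28 for the interaction (0 and 0). The replicate block gave 140 and 109 for diet in *Elf4-/-* and 8 and 2 for genotype under EtOH. The 4 libraries compared alone gave 22 and 18 for diet in *Elf4-/-*, 0 and 0 for genotype under EtOH and 13 and 12 under control diet. Without a filter there were 40 and 10 for genotype under EtOH, 10 and 4 under control diet and 4 and 3 for the interaction, and library totals gave 4 and 1 under control diet. Leaving out 1 library, the calls over all genes ranged for diet in WT from 375 higher and 248 lower to 1927 and 2035, in *Elf4-/-* from 2 and 2 to 831 and 856, and averaged from 1081 and 1055 to 2190 and 2385. For genotype they reached 255 and 86 under EtOH (without *Elf4-/-*-EtOH replicate 2) and 29 and 15 under control diet (without its replicate 1), and for the interaction 71 and 34 (without its replicate 2).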
